A study of Homo sapiens with 4 samples.

Results

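The MYC gene and the stretch of chromosome band 8q24 around it were examined in ATAC-seq data, in which Tn5 transposase cuts and tags open DNA, from A375, an established human melanoma cell line. The members are all deposited regions on chromosome 8 that start at or above 126500000 and end at or below 130000000, a window of 3.5 Mb defined by position alone, though the stretch was picked with earlier results of these data known. They number 188 of the 125986 regions in the table. The octanoate group was kept for 48 h with octanoate, a medium-chain fatty acid, at 1 mM, and the vehicle group received the solvent, isopropanol, for the same time. Each group held 2 libraries. All cells grew in DMEM with 10% FBS, no other treatment is labelled, and the results describe this single cell line. The labels do not say whether the libraries of a group came from separate cultures, so the p-values measure only the spread between these libraries, which may be technical.

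MYC is a transcription factor that pairs with MAX and binds the E-box, the DNA word CACGTG, at promoters of genes for ribosome production, nucleotide and polyamine synthesis and cell division. The gene lies in a stretch with few protein-coding genes, and textbook accounts place many of its distal enhancers there, each used in particular cell types. Several long noncoding RNA (lncRNA) genes share the stretch, among them PVT1, a frequent partner of MYC in 8q24 gains, whose promoter is known to compete with that of MYC for enhancers. Gain of 8q is common in melanoma.

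The comparison asked which open regions near MYC differ after octanoate. The region over the start of MYC showed no detectable change, with a log2 fold change of 0.04 and a 95% interval from -0.30 to 0.39 in the authors' deposited table. An intergenic region 699 kb before MYC rose 1.92-fold on the deposited scale and was the 1 member of 16 tested past an adjusted p of 0.05, where 1.02% of all tested regions passed. Its adjusted p was 0.356 after the tested median was subtracted and 0.135 when the adjustment covered all regions, so the call was lost in both. Of the 5 tested regions inside PVT1, 4 had log2 fold changes between 0.35 and 0.69, and none of these passed. Over all its regions, the window's median lay slightly above the genome's and below those of both neighbouring windows.

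Values per library were not available for this work. The table gives each region's mean over the 4 libraries in normalized reads, the log2 fold change of octanoate over vehicle with its standard error (SE), and a p-value. A mean for each group was computed from the table's mean and fold change and is called the implied mean. It carries no spread between libraries. The authors' adjusted p covers the 11185 regions whose mean reached 63.8, here called tested regions. Of the 188 members 16 were tested, or 8.51%, against 8.88% of all nuclear regions. The remaining 172 were weaker, and the table lists their adjusted p as 1, so for them the SE and the unadjusted p are given and no call was made. Tested members rested on between 500 and 2495 reads over the 4 libraries together. Regions of this table lay above 0 as a whole, with a median log2 fold change of 0.23 over nuclear regions and 0.19 over tested regions, and single values are read beside these medians. The labelled cell type was checked on 5 melanocyte lineage genes. MITF, a long gene, had 25 regions (10.8 per 100 kb) with a strongest mean of 168, while SOX10, PMEL, TYR and MLANA had between 1 and 3 regions each, with strongest means from 11.1 to 34.2. Of the genes of other lineages, ALB and KRT5 had 0 regions, GFAP had 2 with a strongest mean of 10.4, and PTPRC and CD3E had 9 and 2 regions with strongest means of 93.3 and 70.1, above those of SOX10, PMEL, TYR and MLANA. By number of regions per 100 kb, CD3E (14.9), GFAP (13.9) and the melanocyte gene PMEL (13.7) stood above MITF, so these genes did not set the melanocyte lineage apart.

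The gene content of the window was sparse. RefSeq annotation (GRCh38.p14) places the lower coordinate of 47 genes there, of which 5 are protein-coding (LRATD2, POU5F1B, MYC, GSDMC and CYRIB), 25 are lncRNA genes, 6 are miRNA genes and 11 are pseudogenes. Of the members 114 overlapped a protein-coding or lncRNA gene and 74 overlapped none. They had a median width of 493.5 bp and a median mean of 17.2 normalized reads, against 12.2 over all nuclear regions. The strongest members stood apart from each other: the higher-coordinate end of LRATD2 with a neighbour, the start of MYC, a region within CYRIB, and a region 1.58 Mb beyond MYC. Level depends on copy number as well as on openness, and copy number was not analysed here, so a mean set beside other parts of the genome is not a measure of openness alone.

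**Figure D1:**
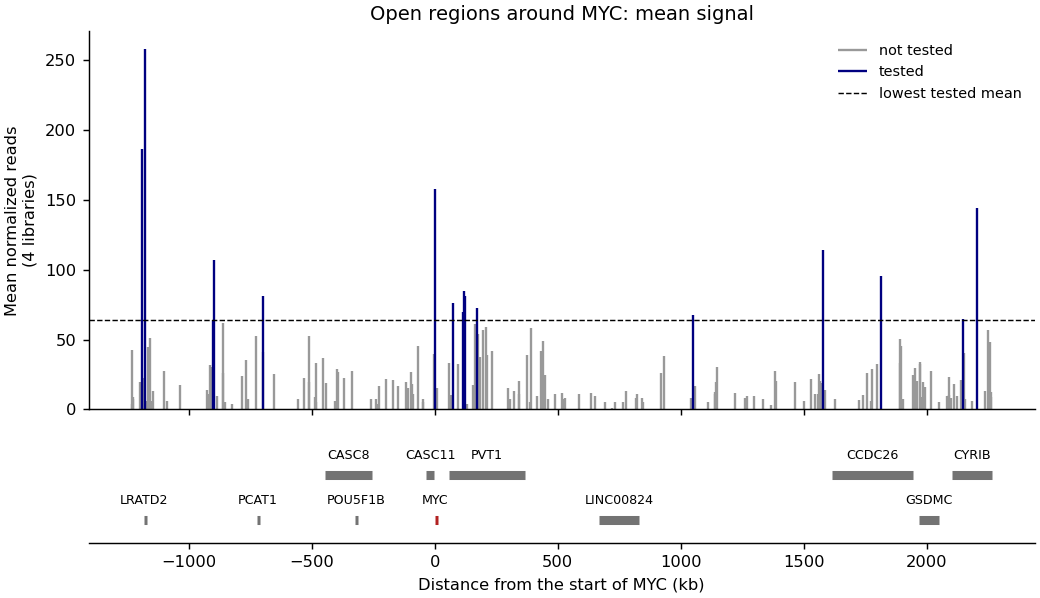
Mean normalized reads over the 4 libraries (vertical axis) of the 188 regions by their distance from the start of MYC in kb (horizontal axis). Selected genes are drawn below, with short genes such as MYC widened to a minimum length and CYRIB cut at the window's end. Blue lines are the 16 tested regions, which reach the dashed line at 63.8, and grey lines are the 172 others. The tallest lines stand at LRATD2 (258), just before it (186) and at MYC (157).

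MYC itself was covered by 1 region, from 127734980 to 127738782 (3803 bp). It begins 454 bp before the annotated start of the gene (127735434) and spans 44.5% of the gene, which is transcribed toward higher coordinates. Which exons and introns it covers was not analysed here. Its mean of 157 normalized reads was the third highest of the members and at percentile 98.6 of all regions. The implied means were 155 for vehicle and 160 for octanoate, a difference within the error. In the authors' deposited table its log2 fold change was 0.04 (SE 0.17, adjusted p 0.932). Relative to the tested median this value was -0.14 (p 0.411), so its sign depends on the reference. The interval leaves room for a fall to 0.81-fold or a rise to 1.31-fold.

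A pair of weaker regions flanked the gene. The region from 127733953 to 127734446, at the higher-coordinate end of the lncRNA gene CASC11 and just before MYC, had implied means of 32.9 for vehicle and 47.0 for octanoate and a log2 fold change of 0.52 (SE 0.34, p 0.132) in the authors' deposited table. The region from 127742970 to 127743338, beginning 19 bp past the annotated end of MYC, had implied means of 10.3 and 20.2, and a log2 fold change of 0.98 (SE 0.55, p 0.0755) in the authors' deposited table. Both were higher than the promoter region in log2 fold change, neither was tested, and both intervals included 0. Beyond the latter region, the next 50.6 kb up to the start of PVT1 held 0 members.

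Before MYC lay 66 members up to 2 kb from the gene, and 5 of them were tested. The intergenic region from 127035499 to 127036405, 14.5 kb past PCAT1, was the 1 member that passed. PCAT1 is a lncRNA gene known from prostate cancer. The implied mean of the region was 55.5 for vehicle and 107 for octanoate, resting on 633 to 785 reads in all. The authors' deposited table gives this region a log2 fold change of 0.94 (SE 0.23, adjusted p 0.0149). This value stands at percentile 99.8 of the tested regions. After the tested median was subtracted, the log2 fold change was 0.75 and the adjusted p 0.356, so the call rests on the deposited scale. The share of tested regions called is 1.02% in the whole table (114 of 11185, all higher), and in the window it was 1 of 16.

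The other tested members before MYC lay near LRATD2 and in neighbouring lncRNA genes. LRATD2, earlier named FAM84B, encodes a protein of the lecithin retinol acyltransferase-like domain family. The region over its higher-coordinate end, from 126554953 to 126558971, was the strongest and the widest member, with implied means of 264 for vehicle and 252 for octanoate. In the authors' deposited table its log2 fold change was -0.07 (SE 0.14, adjusted p 0.857), 1 of 2 tested members below 0. A region 4.34 kb on the other side of LRATD2, from 126546686 to 126548104, had 0.27 (SE 0.15, adjusted p 0.408) in the authors' deposited table. The strong regions at LRATD2 thus had intervals that included 0.

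From 895 to 902 kb before MYC, the uncharacterised lncRNA gene LOC105375753 held a pair of tested regions 5.01 kb apart. Both also lie within LOC105375751, a longer lncRNA gene that also overlaps the strongest region at LRATD2. That from 126839354 to 126840874 had implied means of 83.2 for vehicle and 130 for octanoate. Its log2 fold change of 0.65 (SE 0.22, adjusted p 0.0955) in the authors' deposited table was the second highest among the window's tested members before MYC. The other, from 126833246 to 126834346, had 0.23 (SE 0.26, adjusted p 0.715) in the authors' deposited table.

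**Figure D2:**
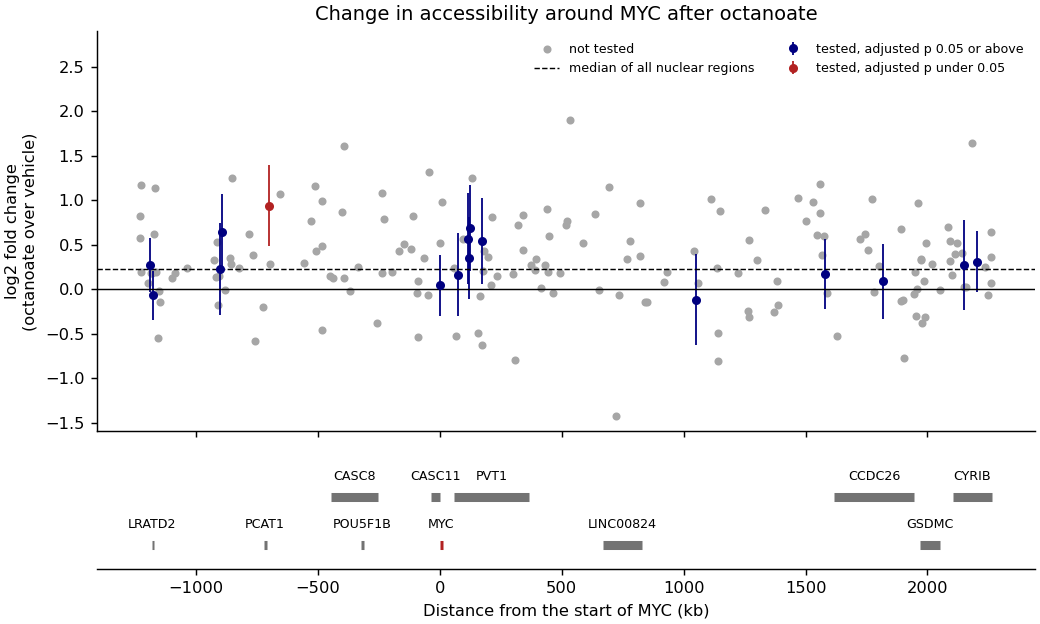
Log2 fold change of octanoate over vehicle (vertical axis) by distance from the start of MYC in kb (horizontal axis). Grey points are members that were not tested, blue and red points are tested members with 95% intervals, and the dashed line is the median of all nuclear regions, 0.23. The single red point, 699 kb before MYC, is the region past the threshold, and the region at 0 kb lies at 0.04.

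Between the called region and MYC the members lie among lncRNA genes known as the CCAT and CASC genes, named for colon cancer and for cancer susceptibility. None of the members between the called region and the region over the start of MYC was strong enough to be tested. The region with the second smallest p of the window, from 127339954 to 127340412, lies within both CASC8 and CASC21, 395 kb before MYC. Its implied means were 14.2 for vehicle and 43.5 for octanoate, on 225 to 280 reads in all. In the authors' deposited table its log2 fold change was 1.61 (SE 0.41, p 8.13e-05), and the table's adjustment did not include it because of its mean of 28.9. When the adjustment covered all regions, its adjusted p was 0.157, beside 0.135 for the called region 699 kb before MYC. Other members of CASC8 and CASC21 did not share this value, with medians of 0.13 over the 7 regions of CASC8 and 0.15 over the 9 regions of CASC21, this region included.

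The ends of the remaining lncRNA genes gave mixed values. A region at the ends of both PCAT2 and PRNCR1 (127080719 to 127081260) had a log2 fold change of 1.07 (SE 0.42, p 0.0110) in the authors' deposited table. A region beside CCAT1 (127206057 to 127206709) had 0.77 (SE 0.45, p 0.0875) and one 3.27 kb beyond its other end (127222543 to 127223248) had 1.16 (SE 0.48, p 0.0160) in the authors' deposited table. The region over CCAT2 (127400718 to 127401489), a stretch known for a colorectal cancer risk variant, had 0.25 (SE 0.40, p 0.525) in the authors' deposited table. These regions had means between 19.4 and 27.4, and none was tested. Of the 20 listed protein-coding and lncRNA genes of the window, 10 had a member within 1 kb of either end and 10 had none, POU5F1B, a retrogene related to POU5F1, among the latter. CYRIB is also among the latter, but its higher-coordinate end lies past the window's limit, so no member could lie there.

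PVT1 held the densest group of strong members. Its span of 307 kb overlapped 23 regions, of which 18 were above 0, 5 were below, and 5 were tested. The median mean of these 23 was 37.2 normalized reads, against 17.2 over all members. At the annotated start of PVT1 the region from 127793956 to 127794854 had a log2 fold change of 0.24 (SE 0.37, p 0.508) in the authors' deposited table. Like the start of MYC, its interval included 0, though its width from -0.48 to 0.96 leaves more room.

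A cluster of 3 tested regions lay within 9.24 kb inside PVT1, between 116 and 124 kb past the start of MYC. The one from 127859425 to 127860432 had implied means of 62.3 for vehicle and 100.4 for octanoate, and a log2 fold change of 0.69 (SE 0.24, adjusted p 0.122) in the authors' deposited table. Its neighbours, from 127851190 to 127852468 and from 127853929 to 127854902, had 0.56 (SE 0.26, adjusted p 0.276) and 0.35 (SE 0.24, adjusted p 0.489) in the authors' deposited table. All 3 lay above the tested median and none passed.

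Farther into PVT1 the values were uneven. The tested region from 127907365 to 127908351 had implied means of 59.3 and 86.5, and a log2 fold change of 0.54 (SE 0.25, adjusted p 0.260) in the authors' deposited table. The region from 127898456 to 127899893, 7.47 kb before it and nearly as strong with a mean of 61.0, had -0.08 (SE 0.27, p 0.767) in the authors' deposited table. The tested region nearest to the start of PVT1 (127809510 to 127810736) had 0.16 (SE 0.24, adjusted p 0.787) in the authors' deposited table. Beside LINC02912, a lncRNA gene inside PVT1, the region from 127949460 to 127950118 had 0.82 (SE 0.34, p 0.0155) and that at its other end (127944484 to 127945720) had 0.05 (SE 0.27, p 0.862) in the authors' deposited table. Of the 5 tested PVT1 regions, 3 had an unadjusted p under 0.05, all higher, where 14.8% of all tested regions did, and 0 passed the adjusted threshold. After the tested median was subtracted, 1 of these 5 had an unadjusted p under 0.05 (0.0404, the region from 127859425 to 127860432), where 4.18% of all tested regions did.

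**Figure D3:**
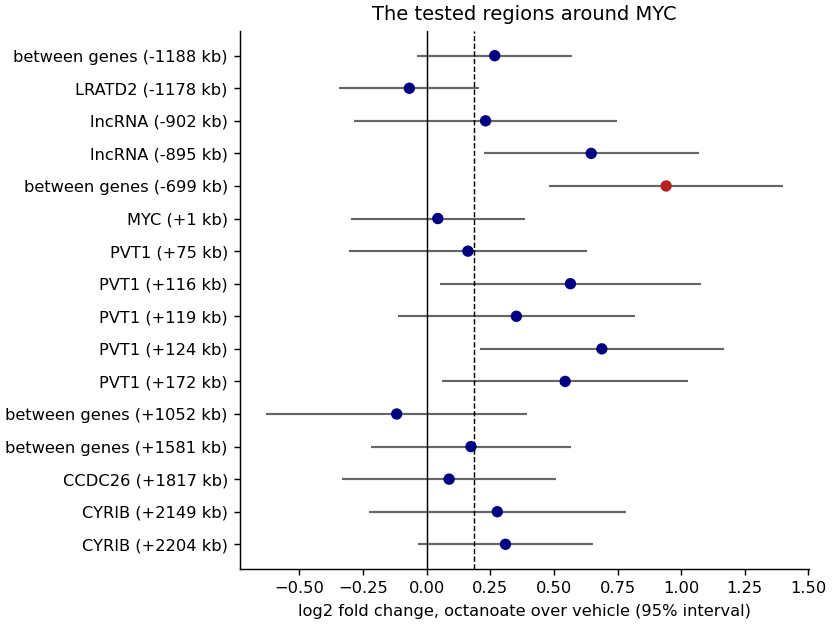
Log2 fold change with its 95% interval (horizontal axis) of the 16 tested regions, ordered along the chromosome (vertical axis). Labels give an overlapped gene and the distance from the start of MYC. Regions that overlap only uncharacterised lncRNA genes are labelled lncRNA, and those that overlap no gene, the called region included, are labelled between genes. The solid line is 0 and the dashed line the median of all tested regions, 0.19; of the 16 points 10 lie to the right of the dashed line, and the red point at 0.94 is the called region.

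Beyond PVT1 lay 96 members, 5 of them tested. CCDC26, a lncRNA gene whose span is known for glioma risk variants and for an enhancer cluster of MYC in blood stem cells, overlapped 12 members with a median log2 fold change of 0.17, of which 7 were above 0. Its tested region (129551256 to 129552800) had implied means of 92.9 for vehicle and 98.8 for octanoate, and a log2 fold change of 0.09 (SE 0.21, adjusted p 0.880) in the authors' deposited table. The region from 129315118 to 129317103, 34.6 kb before CCDC26 and the fifth strongest of the window, had 0.17 (SE 0.20, adjusted p 0.718) in the authors' deposited table. About 1.05 Mb past MYC, the region from 128787517 to 128788213 had -0.12 (SE 0.26, adjusted p 0.867) in the authors' deposited table, the lowest tested value. All of these intervals included 0.

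GSDMC and CYRIB are the protein-coding genes at the far end. GSDMC encodes a gasdermin, a family of pore-forming proteins, and CYRIB encodes a RAC1-binding inhibitor of actin remodelling. GSDMC overlapped 7 members, none tested, with a median log2 fold change of 0.28. CYRIB, which runs past the window's end, overlapped 13 members, of which 12 were above 0. Its strongest region (129938912 to 129940481) had implied means of 129 for vehicle and 160 for octanoate, and a log2 fold change of 0.31 (SE 0.18, adjusted p 0.399) in the authors' deposited table. The second tested region of CYRIB (129883519 to 129884418) had 0.28 (SE 0.26, adjusted p 0.642) in the authors' deposited table.

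Across the window, 143 of 188 members were above 0 (76.1%, against 72.1% of nuclear regions). At an unadjusted p under 0.05, 15 members were higher and 0 were lower, 10 of them not tested. The background at this threshold is 3.58% of all regions higher, and in the window 15 of 188 is 7.98%. Among tested members, 5 of 16 had an unadjusted p under 0.05, all higher, where 14.8% of all tested regions did. After the tested median was subtracted, 3 of 16 had an unadjusted p under 0.05, where 4.18% of tested regions did. None passed the adjusted threshold then, as 0 of 16 members, where 0.0536% of tested regions did. When the adjustment covered all regions 0 of 188 passed, where 0.0198% of all regions did. Those counts are descriptions, since the members were chosen with earlier results known and all regions share the same 4 libraries.

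Large fold changes were found among weak members. Of the members 16 were at least doubled, with a median mean of 6.29 normalized reads and none above 28.9, and 1 was at least halved. The highest log2 fold change, 1.90 (SE 0.77, p 0.0141), belonged in the authors' deposited table to a region with a mean of 8.32 (128267324 to 128267799). The lowest, -1.42 with an SE of 4.05, belonged to the weakest member, with a mean of 0.796 in the authors' deposited table. At the members' median SE of 0.51, an unadjusted p of 0.05 took a log2 difference of 0.99, and at the median SE of the tested members one of 0.46. These sizes hold for a member with the median SE, and members with a smaller SE reached that p at smaller differences.

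Members whose mean reached 12.2, the median of all regions, give steadier values. Of these 112 members 93 were above 0. Their 5 highest log2 fold changes were the CASC8, CCAT1 and PRNCR1 regions given above and a pair beyond PVT1, 1.02 (SE 0.48, 129202453 to 129202887) and 0.98 (SE 0.46, 129267426 to 129267946) in the authors' deposited table. Their lowest was -0.81 (SE 0.49, p 0.0979, 128877740 to 128878316) in the authors' deposited table. Next came -0.55 (SE 0.29, p 0.0594) for the region from 126579720 to 126580700, 21.2 kb from LRATD2, in the authors' deposited table. The 3 others of the lowest 5 had -0.49 (127889913 to 127890437, within PVT1), -0.30 (129686737 to 129687709) and -0.20 (127008720 to 127009563), with unadjusted p-values from 0.336 to 0.478, in the authors' deposited table.

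**Figure D4:**
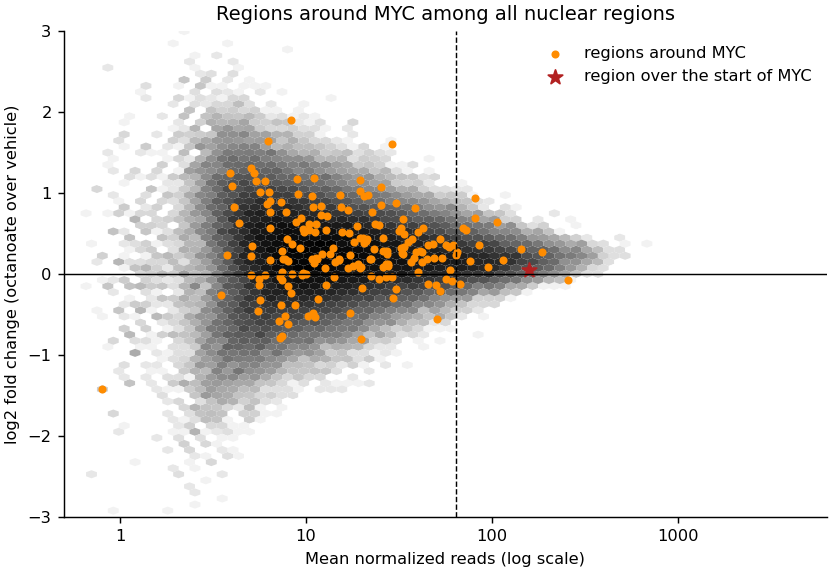
Log2 fold change (vertical axis, shown from -3 to 3) against mean normalized reads (horizontal axis, log scale) for all nuclear regions (grey, darker where more regions fall) and the members (orange). The star is the region over the start of MYC, at a mean of 157 and a log2 fold change of 0.04, and the dashed line is the lowest tested mean, 63.8.

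The window was set beside its surroundings on the same chromosome. The members' median log2 fold change was 0.28, with the middle 50% from 0.02 to 0.60. The window of equal length before it had a median of 0.32 over 181 regions, the one after it 0.43 over 251 regions, and the rest of chromosome 8 had 0.21 over 6396 regions. Over tested regions alone the order against the window before turned, with 0.27 around MYC, 0.25 before and 0.38 after. Called regions numbered 0 of 23 tested in the window before and 1 of 19 in the window after, where 1.02% of all tested regions were called. At an unadjusted p under 0.05, 15 of the 181 regions before were higher and 1 was lower, and 23 of the 251 regions after were higher and 0 were lower, beside 15 of 188 higher around MYC and 3.58% of all regions. Among tested regions 5 of 23 before and 9 of 19 after were higher at that threshold, beside 5 of 16 around MYC and 14.8% of all tested regions. Within the window the medians were 0.26 before MYC, 0.35 in PVT1 and 0.28 beyond PVT1. Members within 1 kb of an end of a protein-coding or lncRNA gene numbered 16 and had a median of 0.30, and the other 172 had 0.28. Differences between these medians were not tested and are small beside the spread of the regions.

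**Figure D5:**
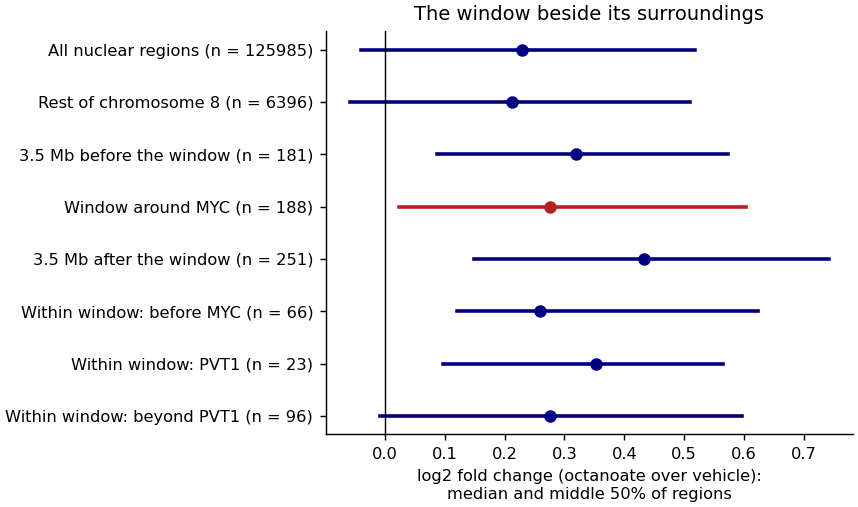
Median log2 fold change (points) and middle 50% of regions (lines, horizontal axis) for all nuclear regions, the rest of chromosome 8, the windows of 3.5 Mb on either side, the window around MYC (red) and its parts (vertical axis, with the number of regions). The red median of 0.28 lies between the median of all nuclear regions, 0.23, and those of both neighbouring windows, 0.32 and 0.43.

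The edges of the window cut through open chromatin on both sides. The outermost member at the start (126504181 to 126504394) had a log2 fold change of 0.82 (SE 1.12), and the region that crosses the limit there (126499573 to 126501576) had -0.26 (SE 0.20), in the authors' deposited table. At the far end, the last member (129997534 to 129998450) had 0.07 (SE 0.59) and the region that crosses the limit on that side (129999242 to 130000321) had 0.38 (SE 0.34), in the authors' deposited table.

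Other genes of the MYC network were read from a list of 38 genes: partners and antagonists, the paralogs MYCN and MYCL, targets, and regulators. Within 1 kb of their ends lay 48 regions, of which 26 were tested, and 0 of these passed an adjusted p of 0.05 (DESeq2, as deposited). At an unadjusted p under 0.05, 4 were higher and 0 lower. Their median log2 fold change over tested regions was 0.16, beside 0.16 over all 6215 tested regions within 1 kb of a protein-coding gene end, of which 0.354% were called and 9.16% had an unadjusted p under 0.05.

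The obligate partner MAX had, at its start, a region with implied means of 113 for vehicle and 123 for octanoate and a log2 fold change of 0.13 (SE 0.20, adjusted p 0.801) in the authors' deposited table. Of the antagonists that compete with MYC for MAX, the start of MXI1 had 0.36 (SE 0.14, adjusted p 0.154), and those of MXD3, MXD1, MXD4 and MNT had 0.21, 0.18, 0.16 and 0.12, in the authors' deposited table. The start of MGA, which also pairs with MAX, was not tested and had -0.03 (SE 0.41) in the authors' deposited table. The paralogs had -0.16 (MYCN, SE 0.21, adjusted p 0.755) and 0.15 (MYCL, SE 0.27, p 0.596) in the authors' deposited table. Among targets, SRM, which makes the polyamine spermidine, had the highest value, 0.60 (SE 0.19, adjusted p 0.0786), and NPM1, a nucleolar protein of ribosome assembly, had 0.41 (SE 0.15, adjusted p 0.133), in the authors' deposited table. Of the regulators, AURKA, a mitotic kinase that stabilises MYC proteins, had 0.31 (SE 0.15, adjusted p 0.290) in the authors' deposited table. The starts of MAX, MYCN and MYCL thus had intervals that included 0, as did the start of MYC.

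The E-box was searched in the 250 bases before each annotated start (RefSeq, GRCh38.p14). CACGTG reads the same on both strands, so 1 search covers both. It was found before 9 of the 24 network genes with a tested region at a start, and before 7.73% of the 27305 genes of the promoter table. The sets are unlike, since the 24 have strongly open starts and include genes listed as MYC targets, which are known for E-boxes, so nothing is read from the difference. A match is a description of the letters and not a measured binding site. The matches in the tested promoters with the highest and the lowest log2 fold change, SRM and HSPD1, a mitochondrial chaperonin, and the match nearest to the start of CDK4, the kinase of G1 phase, are shown with the E-box in capitals, 5′ to 3′ on the gene's strand (minus for all 3). Each lies inside an open region of the table, at chr1:11060195-11060234 (SRM), chr12:57752389-57752428 (CDK4) and chr2:197500340-197500379 (HSPD1).
SRM: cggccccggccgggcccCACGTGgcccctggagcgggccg
CDK4: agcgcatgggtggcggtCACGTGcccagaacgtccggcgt
HSPD1: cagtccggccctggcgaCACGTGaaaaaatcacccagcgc
The E-box lies 199 bases before the start in SRM, 101 in CDK4 and 88 in HSPD1. The log2 fold changes of these regions were 0.60, 0.13 and 0.06 (SRM, CDK4 and HSPD1 in turn) in the authors' deposited table. Promoters with the E-box whose regions were not tested included that of MLX, the dimer partner of MLXIP and MLXIPL, at -0.22 (SE 0.49) in the authors' deposited table.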

How the data were processed

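The authors deposited 1 table of a DESeq2 comparison of octanoate with vehicle, with 0 columns per library. Per the file headers it holds the mean normalized read signal over all libraries, the log2 fold change with its standard error, the Wald score, and the p-value with its adjusted p. The submitters' processing notes name Trim Galore, cutadapt, FastQC, Bowtie2, Picard, MACS2, featureCounts, DESeq2 and bedtools 2.29.1, and the build hg38, with no roles. Peak merging and any Tn5 shift are not given in the sources used here.

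The deposited adjusted p equalled Benjamini-Hochberg adjustment over regions with a mean of at least 63.8. Intervals of 95% are the log2 fold change plus or minus normal quantiles of its standard error. Implied group means assume that the fold change is the ratio of both means. Centred p-values were recomputed in Python 3.11.15 (scipy 1.17.1). The code was run on simulated data with large shifts and the SE taken as exact. That run checks the calculation and not whether the SE holds with 2 libraries per group. Reads behind a mean were bounded by the value of 1 read in each library, recovered from 242 low means, of which 100%, each multiplied by 4 and rounded to whole millionths, equalled sums of whole reads at these values; the libraries could not be named.

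Coordinates count from 1. Members and gene lists were chosen with earlier results of these data known. Named regions were the tested members, those within 2 kb of MYC, those at ends of listed genes, the 5 highest and 5 lowest log2 fold changes among members at or above the median mean, the 5 strongest and the smallest p. Untested regions at the lower-coordinate end of LRATD2, the higher-coordinate end of GSDMC and at MIR1208 are named only here. Their log2 fold changes were 0.18 (SE 0.44), -0.01 (SE 0.98) and 0.01 (SE 0.67) in the authors' deposited table. Named network genes had a tested region at a gene end with an unadjusted p under 0.05, besides MAX, MYCN and MYCL. Other regions and genes in the text were chosen after their values were seen. Likeness of patterns between genes was not computed, since the table holds 1 comparison. No promoter sequence of the window is printed.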

Additional observations from a re-analysis of the deposited data

How the results depend on the processing

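The count of members past the threshold, 1 in the authors' table, was 0 at an adjusted p under 0.01, 0 with Benjamini-Hochberg adjustment over all regions, and 0 after subtracting the tested regions' median or that of all nuclear regions. It was 2 at an adjusted p under 0.1, and 1 when regions that cross the window's edges were included. Shares of all tested regions at 0.01, at 0.1 and after subtracting the nuclear median are not given here, so nothing is read from those counts. The members' median log2 fold change of 0.28 was 0.27 over tested members and within 500 kb of MYC. It was 0.047 relative to the median of all nuclear regions and 0.063 relative to the rest of chromosome 8, by construction of these differences. The region over the start of MYC, at 0.04, reversed to -0.14 after centring on the tested median (p 0.411) and to -0.19 after centring on the median of all nuclear regions (p 0.286), because the subtracted medians exceed its value. No paired analysis was possible because single libraries have no columns here, so leaving out a replicate and a count test with another scaling were not run.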
